A study of Mus musculus with 6 samples.

Results

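The 10 genes described here, of the 21553 genes that carried values in these libraries, were followed in cultured mouse hippocampal neurons before and after depolarization. They are Txnip and its relatives Arrdc3 and Arrdc4, the glucose transporter genes Slc2a1 and Slc2a3, the lactate and pyruvate transporter gene Slc16a1, the glycolytic switch gene Pfkfb3, the hypoxia factor genes Hif1a and Hif3a, and the glucose sensor gene Mlxip. They were matched by Ensembl gene identifier, and each of the 10 passed the filter on low counts that left 15895 genes for testing. Txnip and Hif3a were selected on their measured change at 3 h, which was among the largest falls in an earlier analysis of the same libraries, and the other 8 genes were chosen with their values known. The levels and changes of the 10 genes are therefore a description, and no test of them is offered as support for anything.

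The neurons came from the hippocampus of E16.5 embryos of C57bl/6 mice and had been kept for 10 days in culture. One group received no KCl, another was exposed to 55 mM KCl for 0.5 h and the last to 55 mM KCl for 3 h. Raised extracellular KCl depolarizes the membrane and opens voltage-gated calcium channels. Each group had 2 libraries, which the study calls biological duplicates, so the tests measure the spread between 2 cultures per group, and the sources used here do not say whether cultures of the same number shared a preparation.

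Txnip encodes thioredoxin-interacting protein, an alpha-arrestin that binds thioredoxin and also promotes the removal of glucose transporters from the cell surface. Its transcription is known to be driven by the glucose-sensing factors MondoA, the product of Mlxip, and ChREBP, which act with Mlx on paired E-box-like sequences called carbohydrate response elements, and Arrdc4 is another recognized target of the same factors. Neurons take up glucose mainly through GLUT3, the product of Slc2a3, whereas GLUT1, the product of Slc2a1, is the form of glial and endothelial cells. Hypoxia-inducible factors are pairs of an oxygen-labile alpha subunit and a stable beta subunit, and Slc2a1, Slc2a3 and Pfkfb3 are among their classical targets.

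The sequences upstream of 4 of the genes are shown with short matches to the known motifs of these factors. Whether any factor acts at the marked copies was not tested. RefSeq promoter entries on GRCm38.p6 were found for 9 of the 10 genes, 12 entries in all, and the 250 bases before the annotated start were searched on both strands. Not matched was Slc2a3. In the Txnip sequence (chr3:96557707-96557956, plus strand), capitals mark a pair of CACGNG motifs in the same orientation, spaced 5 bases apart. This is the form of carbohydrate response element known from Txnip, and pairs in opposite orientation were not searched for. In the sequences of Arrdc4 (chr7:68749239-68749488, minus strand), Slc2a1 (chr4:119108495-119108744, plus strand) and Slc16a1 (chr3:104638414-104638663, plus strand), capitals mark ACGTG or GCGTG on either strand, the core of the hypoxia response element. All 4 are written 5′ to 3′ on the strand of the gene.
Txnip: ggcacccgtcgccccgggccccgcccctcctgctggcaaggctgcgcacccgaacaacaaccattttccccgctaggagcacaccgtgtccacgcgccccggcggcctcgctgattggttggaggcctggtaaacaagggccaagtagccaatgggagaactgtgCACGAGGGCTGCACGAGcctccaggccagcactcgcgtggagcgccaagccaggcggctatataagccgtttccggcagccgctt
Arrdc4: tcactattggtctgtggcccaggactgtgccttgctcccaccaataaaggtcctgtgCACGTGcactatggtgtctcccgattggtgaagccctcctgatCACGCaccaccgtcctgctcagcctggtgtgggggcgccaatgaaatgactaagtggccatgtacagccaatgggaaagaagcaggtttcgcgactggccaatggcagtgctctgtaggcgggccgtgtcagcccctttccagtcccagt
Slc2a1: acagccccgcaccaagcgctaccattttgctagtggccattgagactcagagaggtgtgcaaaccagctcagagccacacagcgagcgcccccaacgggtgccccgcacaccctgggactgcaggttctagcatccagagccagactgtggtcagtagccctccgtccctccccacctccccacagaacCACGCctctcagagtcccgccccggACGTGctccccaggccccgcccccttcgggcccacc
Slc16a1: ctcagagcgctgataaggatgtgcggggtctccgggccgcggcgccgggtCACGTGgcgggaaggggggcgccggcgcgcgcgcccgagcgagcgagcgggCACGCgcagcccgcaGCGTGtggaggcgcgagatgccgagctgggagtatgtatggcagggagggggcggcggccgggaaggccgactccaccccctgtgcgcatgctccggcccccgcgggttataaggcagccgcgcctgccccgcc

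The pair of CACGNG motifs lay between 85 and 69 bases before the Txnip start. It was present in 15 of 32851 RefSeq promoters of the same length, or 0.0457%, and among the 12 entries searched here it was found in that of Txnip alone. This form of the element was searched for because it was already known from Txnip, so its presence is a description. The share of promoters does not cover other forms of the element. The Txnip sequence also held GTAAACA, the binding sequence of forkhead factors, 121 to 115 bases before the start, a motif found in 3.17% of all promoters. CACGTG, the canonical E-box, occurred upstream of Arrdc4, Slc16a1, Pfkfb3 and Hif1a, against 6.02% of all promoters, and each CACGTG also holds ACGTG on both strands. ACGTG was found in 7 of the 12 entries and in 16.6% of all promoters, and GCGTG in 10 of the 12 and in 28.2%. The 12 entries are not independent. Arrdc3 and Pfkfb3 have more than 1 each, and the Arrdc3 entries from 80883134 and 80883172 overlap and share the same GCGTG. GC content ran from 58.0% to 76.4% over the 12 and was not compared with that of all promoters, so nothing is read from these shares. TGACG, the core of the cAMP response element, was found in 4 of the 12, those being 1 entry of Arrdc3, both of Pfkfb3 and that of Mlxip, and in 17.8% of all promoters.

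Between 98882007 and 141865913 counts were assigned to genes in each library. Levels are given as the deposited cRPKM, a read density per length of transcript and size of library whose correction is not described in the sources used here, and changes as log2 ratios of the deposited counts from edgeR's quasi-likelihood fit, with a gene called at a Benjamini-Hochberg adjusted p below 0.05 over all 15895 genes. Neuronal markers were present: the summed cRPKM of 6 pan-neuronal genes ran from 1003.24 to 1624.45 and was lowest in both 3 h libraries, a shift whose part in the 3 h differences was not tested. Tubb3 carried much of that shift (606.80 and 453.49 untreated, 253.33 and 158.09 at 3 h). Without it the sum was 1002.91 and 1170.96 untreated and 939.36 and 845.15 at 3 h. Map2 and Snap25 overlapped between the untreated and 3 h libraries. Of the 6 genes, Tubb3 included, 0 were called higher and 0 lower at 3 h against untreated, beside 8.71% and 6.84% of all genes. The cultures also held astrocyte RNA: the sum over 7 astrocyte markers was 811.60, 817.58 and 859.24 in the replicate 1 libraries of untreated, 0.5 h and 3 h, and 1205.50, 1301.47 and 1723.18 in the replicate 2 libraries. Replicate 2 was higher in all 3 groups for 6 of the 7, the exception being Sox9 at 3 h (18.14 and 15.60 cRPKM). Gfap differed by far more than the other 6, whose replicate 2 to replicate 1 ratios ran from 0.860 to 1.82. Endothelial markers summed to 1.02 to 1.50, microglial markers to 0.93 to 1.31 and erythroid markers to 1.87 to 2.65 with Hbb-bt at 0, while oligodendrocyte-lineage markers summed to 49.78 to 73.27 and fibroblast markers to 28.13 to 43.11. Dcn made up most of the fibroblast sum (40.87 and 23.42 untreated, 42.10 and 20.13 at 3 h). Col1a1, Col1a2, Col3a1 and Lum were low and went the other way between replicates. Untreated, Col1a1 read 0.14 and 1.87, Col1a2 0.04 and 2.05, Col3a1 0.04 and 1.64 and Lum 0.49 and 1.01. Whether fewer cells of a type or less RNA per cell lies behind a lower level cannot be told apart in bulk RNA.

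Txnip had the largest fold difference of the 10 genes at 3 h. Its level was 31.66 and 47.00 cRPKM in the untreated libraries, 18.39 and 30.16 after 0.5 h and 2.17 and 5.78 after 3 h. Every 0.5 h library lay below both untreated libraries and both 3 h libraries lay below all others, although the margin at 0.5 h was narrow, 30.16 against 31.66. Group means were 39.3 ± 10.8, 24.3 ± 8.32 and 3.98 ± 2.55 cRPKM (SD, n = 2 each), and the 3 h level was 9.66-fold lower than the untreated one, a log2 change of −3.27 ± 0.50 (SE). At 0.5 h the log2 change was −0.72 ± 0.46, which was not called. Within libraries of the same number, the 3 h level was 0.0685 of the untreated level in replicate 1 and 0.123 in replicate 2, and the 0.5 h level was 0.581 and 0.642 of it. Among the tested genes ranked by cRPKM, Txnip moved from the 86.9th percentile in untreated neurons to the 77.5th at 0.5 h and the 38.4th at 3 h. Replicate 2 was above replicate 1 in each group, by 1.48-fold, 1.64-fold and 2.66-fold, as the summed astrocyte markers were, and the part of those cells in the Txnip values was not tested.

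Arrdc3, an alpha-arrestin that recruits ubiquitin ligases to membrane receptors, also stood lower at both times. Its values were 36.59 and 32.46 cRPKM untreated, 22.79 and 27.44 at 0.5 h and 8.34 and 14.55 at 3 h, with no overlap between any 2 groups. Its 3 h level was 2.93-fold below the untreated level (log2 change −1.55 ± 0.25), and its log2 change at 0.5 h was −0.48 ± 0.24, not called. Arrdc4, the closest relative of Txnip among the 10 in its known regulation, did not share the early difference. It read 18.09 and 18.24 cRPKM untreated, 18.13 and 18.10 at 0.5 h, and 7.10 and 11.15 at 3 h, so that the untreated and 0.5 h libraries were nearly equal while both 3 h libraries were lower. The log2 change of Arrdc4 was −0.03 ± 0.18 at 0.5 h and −0.95 ± 0.18 at 3 h, a 1.93-fold lower level. The ratio of Txnip to Arrdc3 cRPKM was 0.865 and 1.45 in untreated libraries and 0.260 and 0.397 at 3 h, so Txnip was lower by more than Arrdc3 in both pairs.

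**Figure D1:**
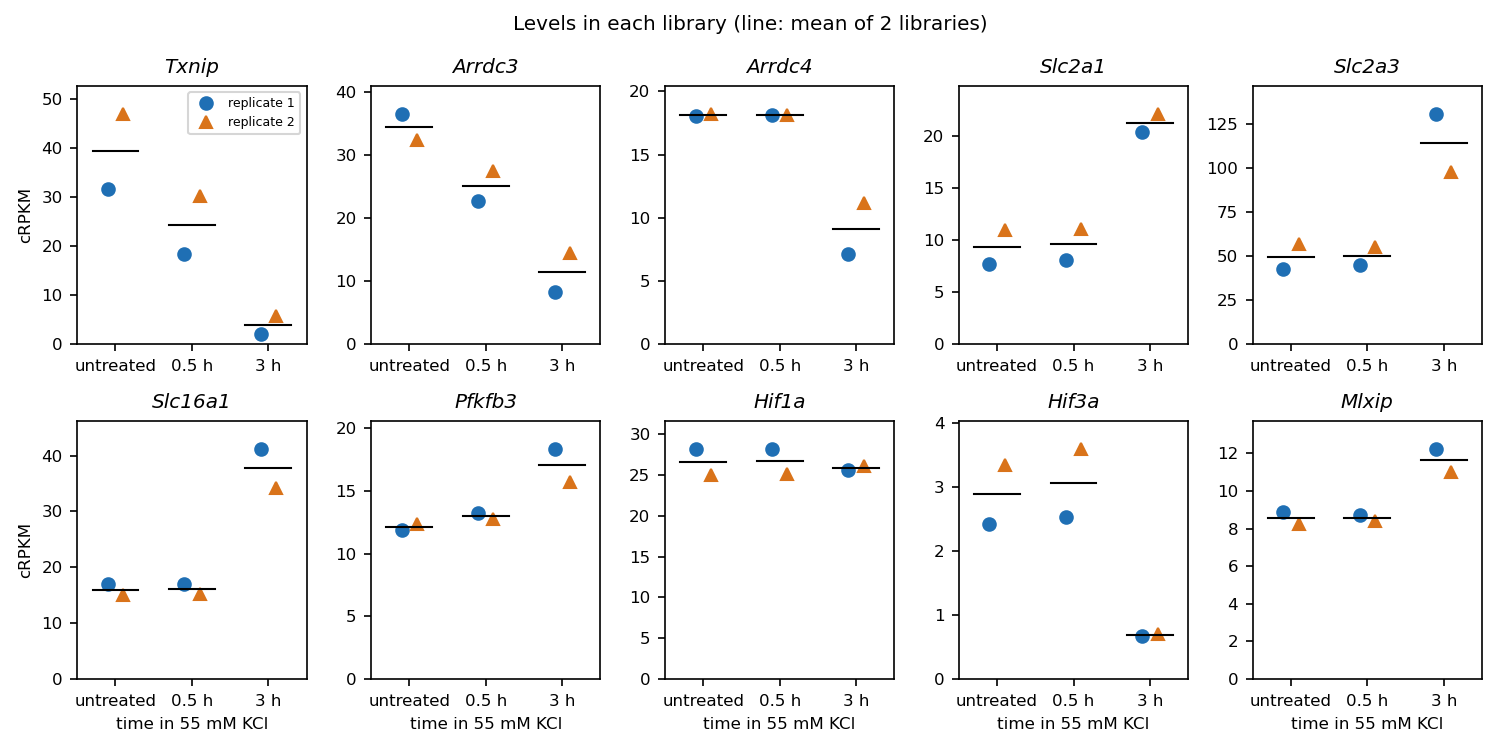
Level of each of the 10 genes in every library, in cRPKM on a linear axis starting at 0, by time of KCl. Circles are replicate 1, triangles replicate 2 and each short horizontal line is the mean of the 2 libraries of a group. Txnip, Arrdc3, Arrdc4 and Hif3a are lowest at 3 h, the 3 transporters, Pfkfb3 and Mlxip are highest there, and Hif1a overlaps between groups.

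The glucose transporters were higher at 3 h. Slc2a3 was the most abundant of the 10 genes, at 42.51 and 56.81 cRPKM untreated, 44.78 and 55.52 at 0.5 h and 131.11 and 98.06 at 3 h. Its 3 h libraries exceeded all others, and its fitted level was 2.41-fold above the untreated one (log2 change 1.27 ± 0.23). Slc2a1 read 7.70 and 11.02 cRPKM untreated, 8.14 and 11.08 at 0.5 h and 20.38 and 22.16 at 3 h, a 2.36-fold higher level at 3 h (log2 change 1.24 ± 0.20). Neither transporter differed at 0.5 h beyond the spread of its replicates, with log2 changes of −0.01 ± 0.22 for Slc2a3 and 0.01 ± 0.20 for Slc2a1. On the cRPKM scale, which is per length, Slc2a3 stood 5.52 and 5.16 times above Slc2a1 in untreated libraries, 5.50 and 5.01 times at 0.5 h, and 6.43 and 4.43 times at 3 h. The ratio at 3 h thus fell on both sides of the untreated values, and the added level of both transporters went from 50.21 and 67.83 to 151.49 and 120.22 cRPKM.

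Slc16a1, which encodes the lactate, pyruvate and ketone body carrier MCT1, had the smallest standard error of the 3 transporters. It measured 16.96 and 14.98 cRPKM untreated, 17.06 and 15.31 at 0.5 h and 41.27 and 34.25 at 3 h. Each 0.5 h value lay close to the untreated library of the same number, and the 3 h libraries stood at 2.43 and 2.29 times those untreated levels. The log2 change was 1.30 ± 0.16 at 3 h and −0.00 ± 0.16 at 0.5 h. Pfkfb3, which makes fructose 2,6-bisphosphate, the activator of phosphofructokinase, showed a smaller difference. Its values were 11.90 and 12.33 cRPKM untreated, 13.26 and 12.76 at 0.5 h and 18.38 and 15.71 at 3 h, each group above the one before it without overlap. Its log2 change at 3 h was 0.55 ± 0.13, a 1.47-fold higher level, and at 0.5 h it was 0.08 ± 0.13.

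The HIF alpha subunit genes went separate ways. Hif1a, the ubiquitous oxygen-labile subunit, read 28.16 and 24.97 cRPKM untreated, 28.22 and 25.15 at 0.5 h and 25.63 and 26.07 at 3 h. Its groups overlapped in every comparison, the log2 change at 3 h was 0.02 ± 0.12, and it was called in 0 of 11 alternative settings (adjusted p = 0.94 with edgeR). HIF-1 alpha is known to be controlled mainly through protein stability, which these RNA data do not measure. Hif3a, whose products include short forms that restrain the other alpha subunits, was the least abundant of the 10 genes. It read 2.42 and 3.35 cRPKM untreated, 2.53 and 3.60 at 0.5 h and 0.68 and 0.70 at 3 h, which rests on 2178, 2832, 2187, 2650, 609 and 440 counts in the same order. Its 3 h level was 4-fold below the untreated level, a log2 change of −2.0 ± 0.23, and its log2 change at 0.5 h was 0.06 ± 0.22. The ratio of Hif1a to Hif3a cRPKM was 11.6 and 7.45 in untreated libraries, 11.2 and 6.99 at 0.5 h, and 37.7 and 37.2 at 3 h. Counts are per gene, so the long and short Hif3a forms were not separated.

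Mlxip, the gene of the glucose sensor MondoA itself, was modestly higher at 3 h. Its values were 8.86 and 8.23 cRPKM untreated, 8.71 and 8.42 at 0.5 h and 12.25 and 11.01 at 3 h, with both 3 h libraries above all others. The log2 change was 0.50 ± 0.11, or 1.42-fold, at 3 h and −0.02 ± 0.11 at 0.5 h. Mlxip and its known target Txnip stood in opposite directions from the untreated libraries at 3 h. Exons of Txnip, Slc2a1, Hif1a and Mlxip overlap annotated antisense transcripts, those of Hif1a overlap a further gene on its own strand, and none of those transcripts has an entry of its own in the files. The named library kit does not mark strand, so their reads cannot be told apart from those of the 4 genes.

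**Figure D2:**
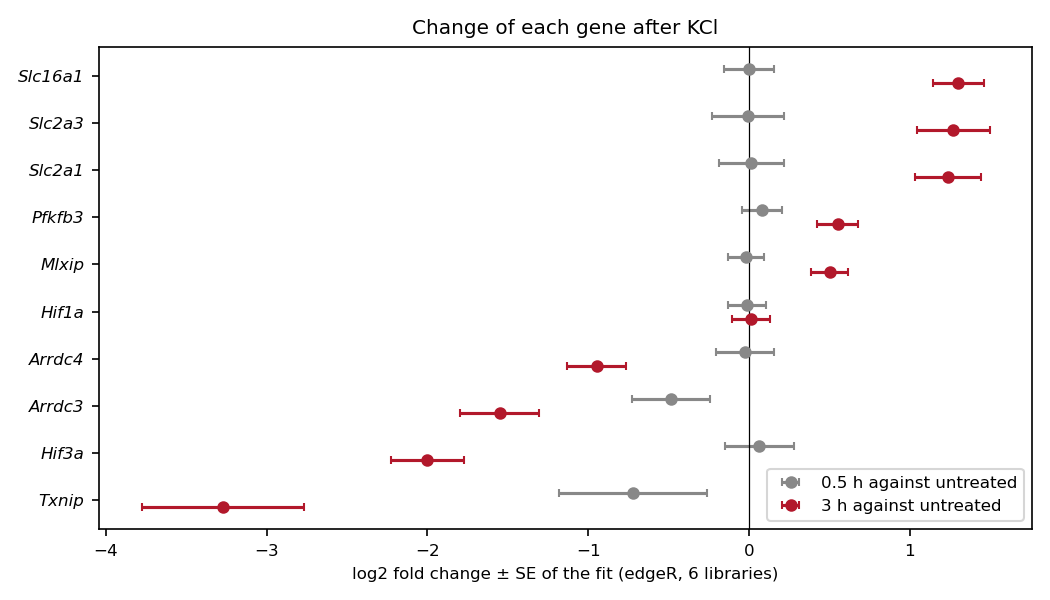
Log2 change against untreated for each of the 10 genes, with the standard error of the edgeR fit, at 0.5 h (grey) and at 3 h (red). The 3 h changes run from −3.27 for Txnip to 1.30 for Slc16a1, while the 0.5 h changes lie between −0.03 and 0.08 except for Arrdc3 and Txnip.

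After 3 h against untreated, 5 of the 10 genes were called higher (Slc2a1, Slc2a3, Slc16a1, Pfkfb3, Mlxip) and 4 lower (Txnip, Arrdc3, Arrdc4, Hif3a). Over all genes tested, 8.71% were called higher and 6.84% lower in that comparison, and since the genes were chosen with these values known nothing is read from their share. Their median log2 change was 0.26, and that of all genes was −0.02. At 0.5 h against untreated, 0 of the 10 were called in either direction with edgeR, against 0.0377% of all genes higher and 0% lower. The same count was 0 with DESeq2 and with limma, and 0 of the 10 had an unadjusted p below 0.05 in these 3 fits. With the replicate block in edgeR, 0 were called and 1 had an unadjusted p below 0.05, in the lower direction. For 3 h against 0.5 h, which shares the 3 h libraries with the first comparison, 4 were called higher and 4 lower, against 6.39% and 4.87% of all genes. Pfkfb3 missed the threshold there with an adjusted p of 0.070 by edgeR and passed it at 0.028 with the replicate number as a block. The count with the block was 5 higher and 4 lower, beside 15.6% of all genes in each direction.

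The calls depended on having both untreated libraries. Calls at 3 h against untreated over all genes also fell when an untreated or a 0.5 h library was left out. The losses below are therefore not particular to these genes. With untreated replicate 1 left out, Hif3a alone of the 9 genes stayed below the threshold (adjusted p = 0.043 by edgeR), and the others ran from 0.067 for Txnip and Slc16a1 to 0.18 for Pfkfb3. With untreated replicate 2 left out, none of the 9 passed, with adjusted p from 0.067 for Slc2a1 and Hif3a to 0.25 for Mlxip, and the lone remaining library was then assumed to vary like the other groups. Leaving out either 0.5 h library also took away Arrdc4 (0.055 in both cases), Pfkfb3 (0.080 and 0.078) and Mlxip (0.076 and 0.080). Mlxip missed the threshold without 3 h replicate 1 as well (0.056), and Slc2a1 without 3 h replicate 2 (0.061). For 3 h against 0.5 h, the fits that left out 0.5 h replicate 1 or 0.5 h replicate 2 called no gene of all those tested. The absence of the 10 there says nothing about them. Leaving out untreated replicate 1 left 2 higher and 1 lower in that comparison, and leaving out untreated replicate 2 left 3 and 1. The 9 genes kept the sign of their 3 h log2 change in 11 of 11 alternatives, with Txnip between −4.06 without 3 h replicate 2 and −2.75 without 3 h replicate 1.

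A total of 8 lists of related genes, 118 tested of 122 listed, set the 10 genes beside their pathways. The lists were drawn up with earlier results of these libraries known. At 3 h against untreated, 12 of the 118 were called higher and 8 lower, beside 8.71% and 6.84% of all genes. Adding the block gave 32 and 28, beside 18.6% of all genes in each direction. When library totals replaced TMM, more listed genes were called lower (16) than higher (10), beside 8.43% and 7.01% of all genes. DESeq2 called 27 higher and 17 lower, beside 14.3% and 11.7% of all genes. At 0.5 h, 0 of the 118 were called with edgeR, DESeq2 or limma, and 2 had an unadjusted p below 0.05, both lower and both in the monocarboxylate transporter list. Leaving out any 1 of the untreated or 0.5 h libraries lowered the 3 h counts, and leaving out 3 h replicate 1 raised them. Calls over all genes moved the same way in each of these fits.

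Of 15 thioredoxin, peroxiredoxin and glutaredoxin genes, listed because Txnip binds thioredoxin, 2 were called higher at 3 h and 0 lower. All genes gave 8.71% and 6.84%. The median log2 change of the 15 was 0.22, with 12 positive and 3 negative. The 2 called were Txnrd1, the reductase that recycles thioredoxin (43.65 and 35.83 cRPKM untreated, 62.63 and 70.68 at 3 h, log2 change 0.80 ± 0.16), and Glrx (0.56 ± 0.09). Srxn1 (1.03 ± 0.27) and Prdx1 (0.87 ± 0.22) had larger changes and were not called (adjusted p = 0.054 by edgeR for each). With the replicate block 8 were called higher and 0 lower, beside 18.6% of all genes in each direction. Of 11 tested arrestins and Nedd4-family ubiquitin ligases, 1 was called higher and 1 lower, with a median of −0.04. Arrdc2, another alpha-arrestin, went from 6.05 and 7.50 to 2.99 and 3.65 cRPKM (log2 change −0.98 ± 0.16), and Smurf2, a ubiquitin ligase of TGF-beta signaling, rose by 0.63 ± 0.14 on the log2 scale. The block gave 2 higher and 4 lower, beside 18.6% of all genes in each direction, and library totals 1 and 4, beside 7.01% and 8.43%.

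In the Mlx, Max and Myc network, the family of Mlxip's partners and competitors, 3 of 12 genes were called higher and 0 lower. All genes gave 8.71% and 6.84%. The median of the 12 was 0.20, with 7 changes positive and 5 negative. Counts were 5 and 3 under the block, beside 18.6% of all genes in each direction. They were 2 and 2 with library totals, beside 7.01% and 8.43% of all genes. The 3 called lower under the block were Mycn, Mycl and Mnt. In the fit without it their log2 changes were −1.06 ± 0.33, −0.92 ± 0.24 and −0.56 ± 0.16, not called. Myc went from 8.97 and 9.24 to 15.55 and 22.46 cRPKM (log2 change 1.11 ± 0.16). Mxi1, a Max partner that represses, rose by 0.99 ± 0.12, and Max, the shared partner, by 0.35 ± 0.08. Max was called in 5 of 11 alternatives, and its call was lost when library totals replaced TMM scaling. Of 9 other tested sugar transporters, 1 was called higher and 1 lower, with a median of −0.20. Under the block 1 and 4 were called, beside the same 18.6% of all genes in each direction. The median was −0.40 without untreated replicate 1, −0.03 without 3 h replicate 1 and −0.48 without 3 h replicate 2. Slc2a6 fell (−0.63 ± 0.11), and Slc2a2, the transporter of liver and beta cells, was called higher (2.09 ± 0.51) at levels of 0.04 to 0.31 cRPKM. Slc2a2 was called in 5 of 11 alternatives and not with limma, and without 3 h replicate 1 its log2 change was 1.41.

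Slc16a1 was higher at 3 h, and the members of its family that were called stood lower. Of the 15 other monocarboxylate transporters and their chaperones, 0 were called higher and 5 lower at 3 h, beside 8.71% and 6.84% of all genes. Their median log2 change was −0.57. The block gave 1 and 8, beside 18.6% of all genes in each direction. That median was −0.80 without untreated replicate 1, −0.17 without untreated replicate 2, −0.26 without 3 h replicate 1 and −0.94 without 3 h replicate 2. Slc16a6, a ketone body transporter, went from 15.53 and 15.68 to 5.55 and 6.24 cRPKM (−1.35 ± 0.08, adjusted p = 0.0035 by edgeR) and was called in 11 of 11 alternatives. The orphan family members Slc16a14 (−1.39 ± 0.13) and Slc16a13 (−0.89 ± 0.15) fell as well. The difference between Slc16a1 and its family was not tested.

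Among 25 glycolytic enzymes and switches, 0 were called higher and 1 lower, beside 8.71% and 6.84% of all genes, with a median of 0.08. The median turned negative without untreated replicate 1 (−0.19) and without 3 h replicate 2 (−0.14), and was 0.42 without untreated replicate 2 and 0.29 without 3 h replicate 1. The block called 5 higher and 6 lower, beside 18.6% of all genes in each direction. Library totals gave 0 and 3, beside 7.01% and 8.43% of all genes. The gene called lower without the block was Tigar, a phosphatase that lowers fructose 2,6-bisphosphate and so opposes Pfkfb3. It went from 8.98 and 9.26 to 5.62 and 5.93 cRPKM (−0.60 ± 0.08).

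Of 13 other HIF subunits and oxygen-sensing genes, 2 were called higher and 0 lower, beside 8.71% and 6.84% of all genes. Their median was 0.22. The block gave 5 and 0, beside 18.6% of all genes in each direction. Egln2, a prolyl hydroxylase that marks HIF alpha subunits for destruction, went from 29.39 and 29.81 to 46.17 and 46.87 cRPKM (0.71 ± 0.08). Arnt, the beta subunit, rose by 0.40 ± 0.10 and was called in 3 of 11 alternatives. Library totals, limma and the fit without the low-count filter were among those that lost the call. Of 18 tested HIF target genes outside the 10, 3 were called higher and 0 lower, beside the same shares of all genes. Their median was −0.01, and the block gave 5 and 3, beside 18.6% of all genes in each direction. The median was −0.21 without untreated replicate 1, 0.28 without untreated replicate 2, 0.22 without 3 h replicate 1 and −0.14 without 3 h replicate 2, so its sign rested on single libraries. Kdm3a, a histone demethylase, went from 11.71 and 12.99 to 24.37 and 25.96 cRPKM (1.08 ± 0.09), and Jmjd6 rose by 0.65 ± 0.09. Hmox1, heme oxygenase, read 25.59 and 22.79 untreated and 47.80 and 115.45 at 3 h (1.79 ± 0.37), and its change was 1.09 without 3 h replicate 2.

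**Figure D3:**
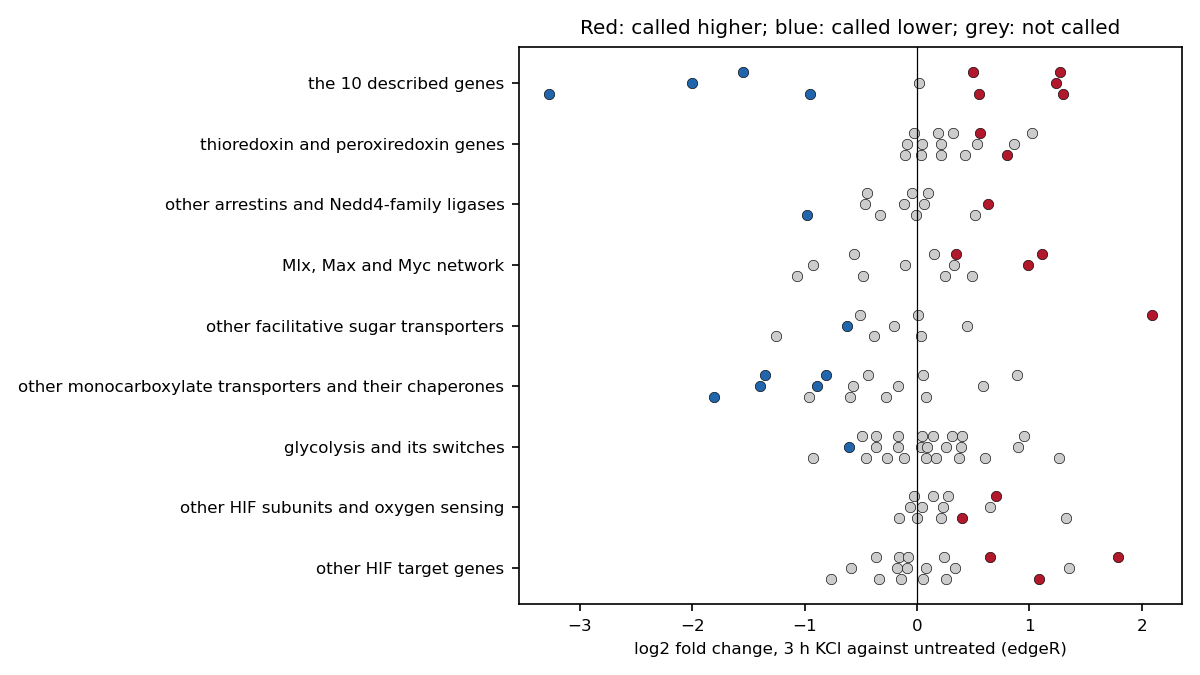
Log2 change at 3 h against untreated for each tested gene of the 8 lists, with the 10 described genes in the top row; red points were called higher, blue lower and grey not called. The 10 genes spread from −3.27 to 1.30, and most points of the other lists are grey.

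Many HIF targets differed between libraries of different replicate number. Replicate 2 exceeded replicate 1 in all 3 groups for 15 of the 18 HIF targets and 17 of the 25 glycolytic genes, against 5564 of the 15895 genes tested, or 35.0%. Of the 10 genes, 3 did so: Txnip, Slc2a1 and Hif3a. Genes picked as examples after their values were seen were Slc16a3, the lactate exporter MCT4, at 0.46, 0.48 and 0.21 cRPKM in replicate 1 and 4.82, 4.63 and 3.23 in replicate 2 (untreated, 0.5 h, 3 h), and the peptide hormone gene Adm, at 0.17, 0.28 and 2.09 against 2.38, 1.40 and 4.20. The astrocyte marker Gfap was 13.7-, 14.7- and 19.3-fold higher in replicate 2, the extreme of its list, while the other 6 summed to 789.22, 794.82 and 834.66 cRPKM in replicate 1 and 898.16, 966.21 and 1248.22 in replicate 2. The part of astrocyte RNA in these differences was not tested. For Slc2a1, replicate 2 was 1.43, 1.36 and 1.09 times replicate 1, and for Hif3a 1.38, 1.42 and 1.03 times, so the distance between replicates was smallest at 3 h for both.

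Profiles like those of Txnip and Hif3a were sought among 12138 genes as the smallest root mean square difference between centred log2(cRPKM + 0.1) values over the 6 libraries. The nearest to Hif3a were Zkscan16 (0.13), Dact2 (0.18), Zc3h6 (0.22), Six5 (0.23) and B3galt4 (0.24). Those nearest to Txnip were farther away: Zkscan16 (0.63), Slc16a9 (0.65), Dact2 (0.69), Zc3h6 (0.70) and Zfp759 (0.72). Zkscan16, Dact2 and Zc3h6 were near both, and Zkscan16 read 4.06 and 5.91 cRPKM untreated, 4.31 and 5.53 at 0.5 h and 0.96 and 1.31 at 3 h. Like Hif3a and unlike Txnip, its 0.5 h libraries overlapped the untreated ones. Slc16a9, a carnitine carrier of the monocarboxylate family, went from 3.47 and 4.40 to 0.64 and 1.55 cRPKM. Replicate 2 lay above replicate 1 at each time in Txnip and in all 5 genes nearest to it, as in 35.0% of all genes tested.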

How the data were processed

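RNA libraries made with the TruSeq RNA kit V2, per the labels' protocols, came in 3 groups of 2. The authors deposited a count and a cRPKM, an RPKM-type value, for each of 22667 genes per library, aligned with Bowtie to mm9 per the submitters' processing notes; how genes were annotated and counted, and what cRPKM corrects for, is not given in the sources used here. Genes without values (1114) were left out. The deposited counts were analysed in R 4.3.3 with edgeR 4.0.16 (TMM, filterByExpr with a minimum count of 10, quasi-likelihood F test on all 3 groups without a block, 3 residual degrees of freedom). Genes were called at a Benjamini-Hochberg adjusted p below 0.05. Gene symbols came from a reference table of Ensembl identifiers, and 20451 genes had one. The procedure was tested on simulated data.

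Alternatives were library totals, DESeq2 1.42.0, limma 3.58.1 with voom, no low-count filter, the replicate number as a block, and leaving out each library. Replicate differences correlated across 15895 genes between groups (r = 0.8053 for untreated and 0.5 h, 0.577 for untreated and 3 h, 0.6133 for 0.5 h and 3 h). A pairing by number would rest on the data alone, over genes that are not independent, since no label states it. The main fit did not use it, so its standard errors include the spread between replicate numbers. Only the blocked alternative treated libraries of the same number as paired.

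The 10 genes and the pathway lists were chosen with earlier results of these data known. Named from each list were up to 3 genes with the smallest adjusted p at 3 h among those called, and the 5 nearest profiles to Txnip and Hif3a with a mean of at least 1 cRPKM. No genome of the build used for alignment was read; promoter positions are on GRCm38.p6.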

Additional observations from a re-analysis of the deposited data

How the results depend on the processing

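Having 2 libraries per group and 3 residual degrees of freedom limits every call. Over the fits that leave out 1 library, the 10 genes gave 0 to 4 called higher and 0 to 4 called lower at 3 h against untreated, and 0 to 4 in each direction at 3 h against 0.5 h. Over all genes, such fits called 34 to 1924 higher and 4 to 1815 lower at 3 h against untreated, 0 to 1527 and 0 to 1388 at 3 h against 0.5 h, and 0 to 6 higher at 0.5 h. With the replicate block, which treats libraries of the same number as paired, 2963 were higher and 2955 lower at 3 h against untreated. The counts were 2477 and 2484 at 3 h against 0.5 h, and 13 and 0 at 0.5 h. DESeq2 called 2276 and 1857, 1942 and 1606, and 35 and 2 in the same comparisons, and without the low-count filter 13 were higher at 0.5 h. Scaling by library totals shifted the median log2 change of all genes to −0.08 at 3 h against untreated and −0.10 at 3 h against 0.5 h. It turned the split of higher and lower calls from 56.0% and 44.0% to 45.4% and 54.6%, and from 56.7% and 43.3% to 42.4% and 57.6%. Apart from Pfkfb3 at 3 h against 0.5 h, the block changed no call among the 10 genes.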
